A study of Mus musculus with 9 samples.

Results

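RNA of the laser-captured mediobasal hypothalamus was compared between 6 mice injected with AAV-Cre and 3 injected with AAV-GFP, which are all 9 libraries of the series, and the comparison was directed at genes that moved the same way in every AAV-Cre mouse whatever its body weight. An entry was followed when all 6 AAV-Cre libraries lay on the same side of all 3 AAV-GFP libraries. All mice, the AAV-GFP mice included, were males on a C57BL/6J background that carried the floxed allele (genotype Snord116tm1Uta/J). Brains were taken 10 weeks after the injection. Weight labels divide the AAV-Cre mice into 3 labelled obese (AAV-Cre replicates 1 to 3) and 3 labelled non-obese (replicates 4 to 6), although the sample titles attach the word obese to the other set. The AAV-GFP mice form the control group. Cre was carried by AAV7 with the CAG promoter and GFP by AAV7 with the CMV promoter, so the vectors differed in more than the protein they encoded. Per the paper's methods, the Cre vector was also injected at a higher concentration than the GFP vector. No mouse of these groups received Cre without carrying the floxed allele. Deletion of Snord116, expression of Cre, the vector itself and its dose cannot be told apart. The last part of the library code was the same in all AAV-Cre libraries and another in all AAV-GFP libraries. What it stands for cannot be told apart from the treatment either. Tissue was cut from single brain slices where Cre was stained in adjacent sections, each library held the RNA of 1 mouse, and the AAV-GFP regions were matched to these by position.

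Snord116 is a cluster of C/D box small nucleolar RNAs in the imprinted Prader-Willi region and is expressed from the paternal chromosome. C/D box RNAs normally guide 2'-O-methylation of ribosomal RNA, but no such target is established for the Snord116 RNAs. The mediobasal hypothalamus holds the arcuate and ventromedial nuclei, in which neurons that express Pomc or Agrp respond to leptin and set food intake. AAV, an adeno-associated virus, can carry a gene into neurons, and the Cre recombinase then cuts out the DNA between a pair of loxP sites.

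Values are signal, that is, reads of a gene relative to a scaled library size, as in CPM, with no correction for gene length, so levels are compared between mice and not between genes. Libraries held between 3929672 and 5766994 reads on the 13588 listed entries. A signal of 0.525 to 0.786 corresponds to 3 reads, taken as the floor below which a level cannot be told from 0, and this covers counting error only. Differences are given as log2 fold change (log2 FC) on log2(signal + 1), which understates the change of low genes, and were tested with limma over the 13506 entries that reached a signal of 1 in 3 or more libraries. FDR is the p after Benjamini-Hochberg adjustment, and entries below 0.1 are named as called. With 6 libraries against 3, the smallest 2-sided p of an exact permutation test is 0.0119. A lower level in bulk tissue can be fewer cells of a type or less RNA per cell, which cannot be told apart here. AAV-Cre replicates 1 and 3, both labelled obese, stood apart from the other libraries by immune transcripts. The summed signal of 20 genes of MHC class I antigen presentation was 4650 and 4354 in these, 335 to 463 in the other AAV-Cre libraries and 337 to 405 in AAV-GFP mice. Medians of the immune gene lists, and the immune genes given by library, are therefore also given without these libraries, a choice made after the values were seen.

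Over all entries, 2 were higher in AAV-Cre mice at an FDR under 0.1 (0.0148% of those tested) and 1 was lower (0.0074%). The entries called higher were Cre and Igkc, and the entry called lower was Gfp. At an unadjusted p under 0.05, 244 entries (1.81%) were higher and 180 (1.33%) lower. Centring each library on its median turned this into 181 higher and 225 lower, so the balance of the directions depended on the scaling. All 6 AAV-Cre libraries lay above all 3 AAV-GFP libraries in 126 entries (0.933%) and below them in 146 (1.08%). If treatment made no difference, 1 of the 84 arrangements of the labels, a share of 0.0119, would put every AAV-Cre library above every control. The same share holds for below. Neither observed share exceeded it, so the counts alone do not show a shared response. The 272 entries are the ones that moved the same way irrespective of weight label, and most of them moved little. Their median absolute log2 FC was 0.69 for the entries above and 0.76 for those below, and 32 and 52 of them changed by at least 1 on the log2 scale. The median gap between the nearest AAV-Cre and AAV-GFP libraries was 0.117 and 0.085 on the log2 scale, and the gap was under 0.1 in 57 and 78 entries. An unadjusted p under 0.05 was found for 81 of the entries above and 83 of those below. Apart from Cre, Gfp and Igkc, none of the 272 passed the FDR in limma. Chromosome 7, which carries Snord116, held 10 of the 126 entries above (7.94%) and 8 of the 146 below (5.48%), against 7.25% of all entries tested.

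**Figure D1:**
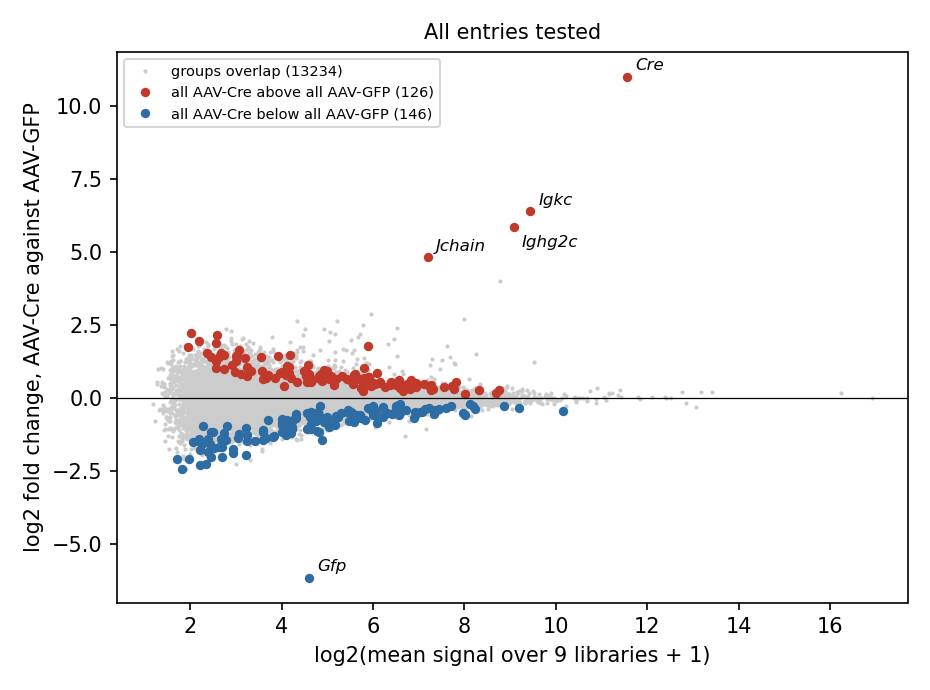
Log2 FC of AAV-Cre against AAV-GFP mice for every entry tested (vertical axis) against the mean signal over the 9 libraries (horizontal axis, log2 of signal + 1). Coloured points are the 126 and 146 entries whose groups do not overlap, grey points the 13234 others; Cre, Igkc, Ighg2c, Jchain and Gfp are labelled.

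Transcripts of the vectors followed the labels in every mouse. Cre had a signal of 1330.2, 8557, 235, 4644, 5136 and 7064 in AAV-Cre replicates 1 to 6 and of 0.249, 0.957 and 0 in AAV-GFP replicates 1 to 3, the latter at most 5 reads. The AAV-Cre libraries thus differed widely in Cre and did not approach the controls (log2 FC 11.01, standard error 0.68, FDR = 8.34e-10 from limma). Gfp had a signal of 79.0, 67.0 and 62.7 in AAV-GFP mice and 0 reads in every AAV-Cre library, at least 104-fold lower with AAV-Cre libraries set to the floor of 3 reads each (limma FDR = 3.79e-05). Replicate 3 had the lowest Cre of the AAV-Cre mice and the highest Igkc. Replicate 2 had the highest Cre, and its Igkc of 52.2 was above that of replicates 4 to 6.

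The Snord116 genes themselves could not be followed. Of 17 genes of that name annotated on chromosome 7 from 59861731 to 59904848 (GRCm38), 0 have an entry, so the deletion was not measured here. Within 2 Mb of the cluster lie 9 entries, and in 0 of them did the groups separate. Gm38393, which overlaps Snrpn and Snurf upstream of the cluster, averaged 337 ± 46.3 (SD, n = 6) with AAV-Cre and 324 ± 31.2 (SD, n = 3) with AAV-GFP. Ube3a, the ubiquitin ligase of Angelman syndrome on the other side, had 218 ± 22.1 (SD, n = 6) and 240.5 ± 22.5 (SD, n = 3), and its log2 FC of −0.14 (standard error 0.15) was within the spread between mice. Snord64, another C/D box RNA of the region, averaged 5.45 with AAV-Cre and 4.56 with AAV-GFP, with 2 reads in AAV-Cre replicate 5 and a log2 FC of 0.01. Of the 13 genes of the wider Prader-Willi region that were tested, 0 were higher and 1 was lower at an unadjusted p under 0.05, with a median log2 FC of −0.02 against −0.03 over all entries. This gene was Nipa1, a magnesium transporter gene of the neighbouring interval (log2 FC −0.76, standard error 0.34, limma FDR = 0.999). Its signal of 18.4, 34.7, 17.7, 20.8, 16.2 and 27.3 in AAV-Cre mice overlapped 40.1, 30.1 and 44.1 in AAV-GFP mice in replicate 2. Among the others, the neuronal MAGE genes Ndn and Magel2 had log2 FCs of 0.09 and −0.02. The GABA-A receptor subunit genes Gabra5 and Gabrg3 had −0.74 and 0.17. Herc2 had −0.03, Atp10a −0.06, Nipa2 0.22, Tubgcp5 0.02 and Cyfip1 0.10, all with groups that overlapped. Over 34 imprinted genes elsewhere in the genome, 1 was lower and 0 higher at that threshold and the groups separated in 0. The gene that was lower was Rian, a maternally expressed long RNA, with −0.36. Asb4, an imprinted gene of hypothalamic neurons, had 0.48.

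Igkc, the constant region of the immunoglobulin kappa light chain (chromosome 6, 70726435 to 70726966, GRCm38), was the only called gene that is not of a vector. Its signal was 2074, 52.2, 4033, 18.6, 24.9 and 30.5 in AAV-Cre replicates 1 to 6, and 1.496, 0 and 0.777 in AAV-GFP mice. Every AAV-Cre mouse, whichever its label, had at least 95 reads and no control had more than 6. The log2 FC was 6.40 (standard error 1.19, limma FDR = 0.0835), and the exact permutation p over the 9 libraries was 0.0357. Without replicates 1 and 3 the log2 FC was 4.21 (standard error 0.61) with a limma FDR of 0.00086. These replicates were left out after the values were seen and had the highest Igkc, so this FDR does not strengthen the call. The call was lost in 8 alternatives, namely without AAV-Cre replicate 2, without each of the 3 AAV-GFP libraries, with a pseudocount of 5, with a filter at a signal of 5, without a variance trend and in the edgeR quasi-likelihood test.

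Further genes of antibody-secreting cells were also highest in replicates 3 and 1. Jchain, the chain that joins secreted IgA and IgM (chromosome 5, 88519809 to 88527891), had 513, 13.2, 768, 1.05, 4.98 and 7.04 in AAV-Cre mice and 0 reads in every control. The AAV-Cre mean was at least 343-fold higher with each control at the floor, a fold carried by replicates 1 and 3. Ighg2c, an IgG heavy chain constant region (chromosome 12, 113285325 to 113288932), had 1555, 54.5, 3157, 1.57, 0.786 and 72.3 against 0.249, 0 and 0.194. In replicates 4 and 5 these levels were 9 and 3 reads, so that only part of the AAV-Cre mice had Ighg2c well above the floor. Over the 12 tested genes of plasma cells and B cells, 5 were higher and 0 lower at an unadjusted p under 0.05, and 3 lay above in all 6 libraries. The 5 were Igkc, Jchain, Ighg2c, Ighg2b and Igha. The median log2 FC of the 12 was 1.67, and 0.59 with replicates 1 and 3 left out. Of the 15 genes of the list in the table, 12 passed the filter, and Jchain, Ighg2c, Ighg2b, Iglc2, Sdc1 and Prdm1 passed it through AAV-Cre libraries alone, so that their positive sign was fixed by the filter. The signal summed over the 12 was 97.2 to 11580 in AAV-Cre mice and 48.55 to 66.45 in AAV-GFP mice, and Xbp1, which is not particular to these cells, made up most of it in the controls (mean signal 52.2, and 61.97 in AAV-Cre mice). Without replicates 1 and 3 the log2 FC fell from 4.84 to 2.61 for Jchain and from 5.88 to 3.36 for Ighg2c. Constant regions of the heavy chains are alike in sequence, so reads may be divided wrongly among Ighg2b, Ighg2c and their relatives.

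**Figure D2:**
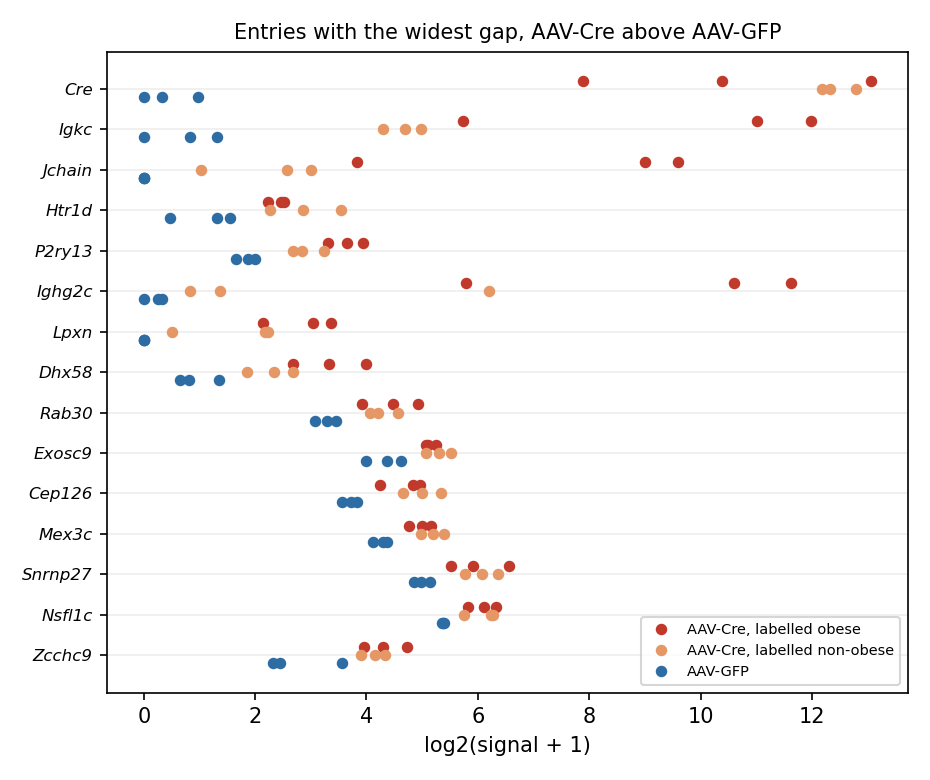
Signal in each library, as log2(signal + 1), of the 15 entries with the widest gap among those above in all 6 AAV-Cre mice. Each point is 1 mouse, red and orange for AAV-Cre by weight label and blue for AAV-GFP; Igkc ran from a signal of 18.6 to 4033 among AAV-Cre mice, and was 1.496 or less in each AAV-GFP mouse.

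Immune genes other than those of antibodies were among the 15 entries above with the widest gap. P2ry13, a purinergic receptor gene of microglia (chromosome 3, 59207892 to 59210882), had 14.4, 8.85, 11.6, 5.42, 8.38 and 6.19 against 2.99, 2.68 and 2.14 (log2 FC 1.43, standard error 0.59, limma FDR = 0.999). Dhx58, which encodes the viral RNA sensor LGP2 (chromosome 11, 100694884 to 100704271), had 14.8, 5.45, 9.06, 5.42, 2.62 and 4.05 against 0.748, 0.574 and 1.55 (log2 FC 1.88). Lpxn, the leukocyte adhesion adaptor leupaxin (chromosome 19, 12796193 to 12833807), had 7.20, 3.404, 9.29, 3.4999, 3.67 and 0.427 in AAV-Cre mice and 0 reads in all controls, with only 2 reads in replicate 6. Lpxn passed the filter through AAV-Cre libraries alone, so that its positive sign was fixed by the filter. For each of these 3 genes the lowest AAV-Cre value was in a mouse labelled non-obese. Without replicates 1 and 3 the log2 FC was 1.17 for P2ry13, 1.45 for Dhx58 and 1.76 for Lpxn, with unadjusted p of 0.0887, 0.0622 and 0.0418 from limma. Lpxn was called by the edgeR likelihood ratio test and by DESeq2, and not by limma or the edgeR quasi-likelihood test.

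Htr1d, a serotonin receptor gene (chromosome 4, 136423524 to 136444398), had 4.72, 4.54, 3.72, 10.7, 6.29 and 3.84 against 1.496, 1.91 and 0.388 (log2 FC 1.54, standard error 0.69). Snrnp27, a component of the spliceosomal tri-snRNP (chromosome 6, 86675151 to 86684522), had 59.2, 92.8, 44.8, 53.4, 81.5 and 66.8 against 34.2, 30.6 and 28.0. Its log2 FC of 1.04 (standard error 0.26, limma FDR = 0.999) was nearly equal in the mice labelled obese (1.002) and non-obese (1.08). Exosc9, a subunit of the RNA exosome, had 32.6 to 44.6 in AAV-Cre mice against 14.96 to 23.6. Zcchc9, a zinc finger gene, had 14.0 to 25.6 against 3.99 to 10.7, and Mex3c, which encodes an RNA-binding ubiquitin ligase, had 26.3 to 41.2 against 16.5 to 19.6. These are differences of 1.82-fold to 2.83-fold between group means, in genes that each mouse expressed well above the floor. Rab30, a small GTPase of the Golgi, had 14.2 to 29.3 against 7.48 to 9.96. Cep126, a centrosome and cilium gene, had 17.9 to 39.5 against 10.7 to 13.2. Nsfl1c, the p47 cofactor of the p97 ATPase, had 53.02 to 79.0 against 39.8 to 41.2, with log2 FCs of 0.71 in both weight labels.

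Entries below in all 6 AAV-Cre mice had a median signal of 26.5, against 22.4 over all entries, and in 29 of the 146 the lowest AAV-Cre library had 3 reads or fewer, against 2343 of all 13506. Krt18, a keratin of simple epithelia (chromosome 15, 102028180 to 102032027), had the widest gap after Gfp, with 0, 0.908, 0.232, 0.350, 0 and 1.28 against 9.47, 5.36 and 5.05 (log2 FC −2.41, standard error 0.81, limma FDR = 0.999). Fancg, a DNA repair gene of the Fanconi anaemia complex (chromosome 4, 43002343 to 43010506), had 1.57, 0.681, 0.465, 0.175, 2.88 and 2.13 against 5.73, 10.1 and 13.01 (log2 FC −2.26). Iqck, which encodes an IQ motif protein (chromosome 7, 118855752 to 118972652), had 0, 0, 1.39, 0.525, 1.83 and 3.20 against 13.2, 6.13 and 6.41 (log2 FC −2.28). AAV-Cre libraries held at most 6 reads for Krt18, 11 for Fancg and 15 for Iqck. Every control held at least 26, 23 and 32 reads, in the same order.

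Chrm3, the M3 muscarinic acetylcholine receptor gene (chromosome 13, 9875486 to 10360847), had 4.72, 0.908, 7.43, 3.4999, 0 and 5.33 against 12.7, 12.8 and 11.8 (log2 FC −1.86, standard error 0.72). Plxna1, a semaphorin receptor gene (chromosome 6, 89316314 to 89362620), was the best sampled of the group, with 116, 109, 63.9, 104, 109 and 96.7 against 171, 146 and 152 (log2 FC −0.67, standard error 0.20, limma FDR = 0.999). Stat5a, a transcription factor activated by cytokine receptors, had 4.72, 7.72, 6.74, 0, 1.83 and 2.13 against 12.7, 13.6 and 10.1. The mice labelled non-obese were lower in Stat5a (log2 FC −2.66) than those labelled obese (−0.84), a difference that did not pass (limma FDR = 0.337). Corin, a protease that activates natriuretic peptides, had 0 to 1.57 against 2.52 to 8.23. Lrrc8b, a subunit of volume-regulated anion channels, had 1.59 to 10.3 against 13.6 to 26.4, and Agbl4, a carboxypeptidase that acts on tubulin, had 4.19 to 13.7 against 17.3 to 25.7. The snRNA entry Gm23511 had 2.09 to 7.49 against 10.7 to 17.6. Zfp958, Tmem14a, AI429214 and an entry without a symbol (ENSMUSG00000047490) completed the 15, with log2 FCs of −1.68, −1.51, −2.09 and −2.01.

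**Figure D3:**
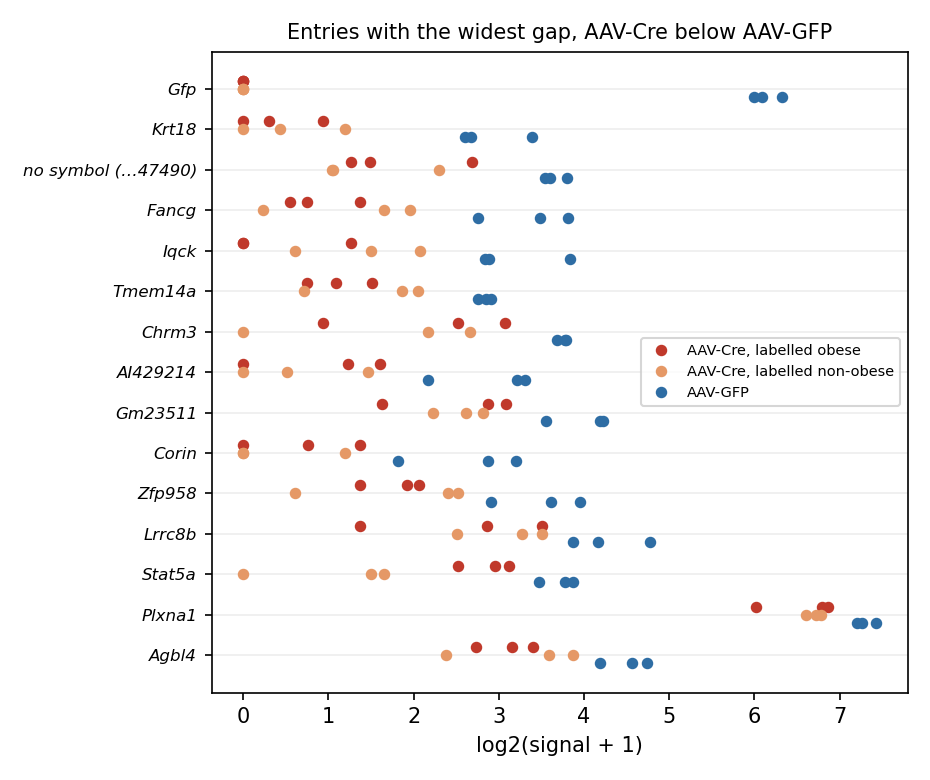
Signal in each library, as log2(signal + 1), of the 15 entries with the widest gap among those below in all 6 AAV-Cre mice. Each point is 1 mouse, coloured as to weight label (red and orange, AAV-Cre) or AAV-GFP (blue); all but Gm23511, Lrrc8b, Agbl4, Plxna1 and the entry without a symbol have an AAV-Cre mouse below a signal of 1.

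Ribosomal protein genes had a positive median log2 FC under both weight labels. Both labels were compared with the same AAV-GFP mice, so the shared sign is not independent. Ribosomal protein genes encode the proteins of the cytosolic ribosome and are regulated together. Of 82 tested, 11 were higher and 0 lower at an unadjusted p under 0.05 (1.81% and 1.33% over all entries), 4 lay above in all 6 libraries and 0 below (0.933% and 1.08%), and 63 had a positive log2 FC. The median log2 FC was 0.16 (0.12 after median centring), with 0.21 under the obese label and 0.12 under the non-obese label, against −0.03 over all entries. Their summed signal was 9801, 8780, 9236, 8131, 8037 and 8570 in AAV-Cre replicates 1 to 6 and 7775, 7609 and 7227 in AAV-GFP mice, so each AAV-Cre mouse was above each control. This separation of the sums depended on the scaling, since total signal differed between libraries (1029240 in AAV-Cre replicate 5, 954378 in AAV-GFP replicate 2). Without replicates 1 and 3 the median was 0.11, with 57 of 82 positive and 6 higher at that threshold.

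Values by library are given for 3 of the 4. Rps6, the small-subunit protein phosphorylated downstream of mTOR, had 116, 109, 134, 104, 93.0 and 85.6 against 72.1, 85.0 and 78.8 (log2 FC 0.43). The lowest AAV-Cre mouse was barely above the highest control for Rps6. Rpl23, of the large subunit, had 248, 238, 183, 179, 192 and 183 against 159, 171 and 133 (log2 FC 0.40). Rplp2, an acidic protein of the ribosomal stalk, had 255.2, 281, 260, 186, 207 and 190 against 176, 164 and 171 (log2 FC 0.41). The mice labelled obese had the higher Rplp2 (log2 FC 0.64 against 0.19), a difference that did not pass (limma FDR = 0.283). Rpl37 had the smallest p of the list (log2 FC 0.66, standard error 0.18, limma FDR = 0.999), with 212 to 367 against 159 to 239, and the groups overlapped. Rpl35 was the lowest-p member with a negative log2 FC, at −0.55. Ribosomal protein genes are short, with a median of 1806 bases of merged exons. Among other protein-coding entries with at most 1000 bases of merged exons, 6 of 174 were higher and 0 lower at that threshold (3.45% higher, median log2 FC 0.08). In the 4 classes of longer genes 1.58% to 1.97% were higher, without an order by length, and the medians ran from 0.02 between 1000 and 2000 bases to −0.04 over 4000 bases. The part of gene length in the ribosomal result was not tested.

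**Figure D4:**
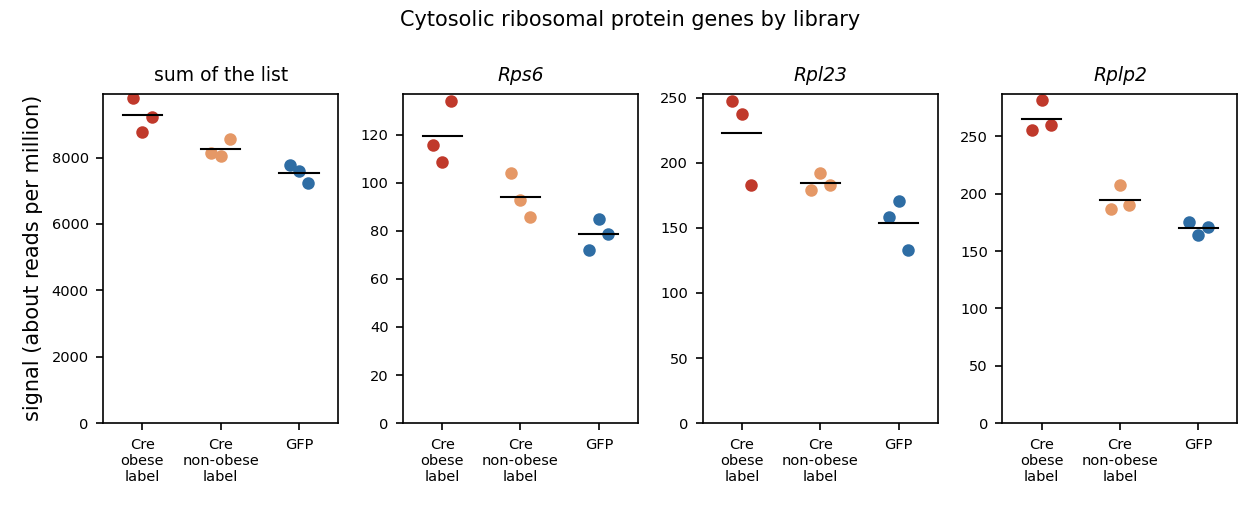
Signal of the 82 cytosolic ribosomal protein genes summed (left) and of 3 of the 4 genes above in all 6 AAV-Cre mice, by library (points, 1 mouse each) with group means (lines); vertical axes start at 0. On the scaling of the deposited values, the summed signal was 8037 or more in every AAV-Cre mouse and 7775 or less in every AAV-GFP mouse.

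The start sites of ribosomal protein genes are shown because many such mRNAs begin with a C followed by pyrimidines, the 5' terminal oligopyrimidine tract through which their translation is controlled. Windows of 40 bases around the RefSeq start (GRCm38.p6), 20 before and 20 from the start on, were read for the genes of this list that were named above and for which a window was given, with an initial tract of C and at least 4 further pyrimidines in capitals.
Rps6 (chr4:86857348-86857387, minus strand): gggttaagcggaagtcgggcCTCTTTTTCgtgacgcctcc
Rplp2 (chr7:141447631-141447670, plus strand): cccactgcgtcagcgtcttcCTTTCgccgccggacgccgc
Rpl23 (chr11:97782420-97782459, minus strand): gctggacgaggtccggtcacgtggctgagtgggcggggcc
Rpl37 (chr15:5116593-5116632, plus strand): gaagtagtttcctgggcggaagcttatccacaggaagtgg
The tract began at the annotated start in Rps6, where it ran over 9 bases, and in Rplp2, where it ran over 5, and not in Rpl23 or Rpl37. The window of Rpl37 ends before the start of that gene in GENCODE (5116645), so a tract there would not be seen. A gene counted as without the tract lacks it at the RefSeq start, which does not show that its mRNA lacks it. Searched on the transcribed strand at the annotated start only, it was found in 13 of 60 tested ribosomal protein genes with a window (21.7%), in 2.94% of 10187 tested genes and in 2.51% of all 32851 windows. The median log2 FC was 0.11 over the 13 ribosomal protein genes with the tract and 0.16 over the 47 without. Of the 93 entries above in all 6 AAV-Cre mice that had a window, 8 (8.6%) held the tract. The 300 tested genes with the tract had a median of −0.01.

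Transcripts of the mitochondrial genome took a large share of each library, with a summed signal of 196400 to 275800 in AAV-Cre mice and 216700 to 254700 in AAV-GFP mice, which overlapped. Of 34 tested, 3 were higher and 0 lower at an unadjusted p under 0.05, with a median log2 FC of 0.17, and 0 separated the groups. The 3 were the tRNA genes mt-Tg, mt-Tv and mt-Tt. The median was −0.08 under the obese label and 0.45 under the non-obese label, so this list did not have 1 direction in both labels. Without replicates 1 and 3 the median was 0.37, with 11 of 34 higher at that threshold and 5 above every control. Over all 13506 entries these counts were 265 and 331. For 34 genes of the snoRNP and the splicing machinery, with which small nucleolar RNAs assemble or act, 0 were higher and 1 was lower (median −0.05). This was Tra2b, a splicing regulator, with −0.57, and Hnrnpu had 0.28.

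Of 19 genes of the circadian clock and 14 of thyroid hormone action, 2 in each list lay below in all 6 AAV-Cre mice (1.08% over all entries). Nr1d1, which encodes the clock repressor REV-ERB alpha (chromosome 11, 98767932 to 98775333), had 34.6, 36.8, 18.4, 29.0, 30.4 and 33.3 against 47.9, 48.6 and 43.1 (log2 FC −0.63, standard error 0.29, limma FDR = 0.999). Per2, a core clock repressor (chromosome 1, 91415982 to 91459324), had 8.32, 28.4, 12.3, 28.5, 27.8 and 25.4 against 31.7, 34.1 and 37.5 (log2 FC −0.76). The lowest Per2 values were those of replicates 1 and 3, and without these the log2 FC was −0.31 for Per2 and −0.51 for Nr1d1 (unadjusted p 0.334 and 0.0814 from limma). Klf9, a transcription factor induced by thyroid hormone and glucocorticoids (chromosome 19, 23141226 to 23168134), had 26.1, 32.5, 15.3, 21.7, 20.4 and 26.5 against 42.4, 41.9 and 38.5 (log2 FC −0.80, standard error 0.32, limma FDR = 0.999). Trhr, the receptor of thyrotropin-releasing hormone (chromosome 15, 44196135 to 44235912), had 8.10, 9.76, 3.48, 4.90, 9.69 and 1.71 against 16.7, 10.5 and 10.3 (log2 FC −1.02). Klf9 and Nr1d1 were nearly equally lower in both weight labels, with −0.77 and −0.82 for Klf9 and −0.68 and −0.58 for Nr1d1. Of the 19 clock genes, 0 were higher and 1 lower at an unadjusted p under 0.05 (median log2 FC −0.36, and −0.16 without replicates 1 and 3), and Cry1, also a clock repressor, pointed the other way with 0.98. Of the 14 genes of the thyroid axis, 0 were higher and 1 lower (median −0.12). Trh, the releasing hormone, had 30.6, 30.2, 69.5, 12.6, 1.57 and 8.54 against 3.74, 13.6 and 9.13. Its level was high in the mice labelled obese alone, and the labels differed by −2.57 on the log2 scale, non-obese minus obese (limma FDR = 0.0699). The hour at which brains were taken is not given in the sources used here.

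The pathway of leptin and melanocortin, in which Pomc and Agrp neurons answer to leptin, had 29 genes tested, of which 2 were higher and 1 lower at an unadjusted p under 0.05 (median log2 FC −0.01). Bdnf, a growth factor that acts below the melanocortin receptor in the hypothalamus (chromosome 2, 109674700 to 109727007), was the gene that separated the groups, with 0.225, 7.26, 0, 11.9, 2.10 and 9.82 against 14.96, 13.4 and 14.8 (log2 FC −1.93, standard error 0.80, limma FDR = 0.999). Its AAV-Cre values ran from 0 reads to close below the controls. Socs3, an inhibitor of leptin receptor signalling, had 30.1, 20.4, 3.95, 4.90, 7.07 and 3.20 against 3.99, 0.766 and 1.75 (log2 FC 1.69, standard error 0.73, limma FDR = 0.999). Replicates 3 and 6 lay below the highest control, so Socs3 did not move alike in all 6. Its log2 FC was 2.36 under the obese label (limma FDR = 0.254) and 1.02 under the non-obese label. From these same libraries, the paper reports a larger rise in its obese than in its nonobese AAV-Cre mice. It counts the rise in the obese mice as significant. Prcp, which degrades a melanocortin peptide, was the other higher gene, with a log2 FC of 1.54. Pomc, the melanocortin precursor, ranged from 4.65 to 92.5 in AAV-Cre mice and from 8.16 to 100.48 in AAV-GFP mice, and Agrp, the melanocortin antagonist, from 0 to 17.8 and from 2.33 to 14.5. Npy had a log2 FC of 0.00, Lepr of −0.30, the prohormone convertase gene Pcsk1 of −0.01 and Nhlh2 of 0.82, each with overlapping groups. Among 20 further neuropeptide genes, 2 were higher and 0 lower (median −0.02), and 0 separated the groups. Pmch, the precursor of melanin-concentrating hormone in the lateral hypothalamus, had 182, 93.5, 306, 744, 142 and 58.9 against 78.8, 222 and 16.5 and followed no label. Chgb, a granin, had 0.31, and the neurotensin gene Nts had −0.68.

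Markers of place varied between mice within each group. The 16 genes of the ventromedial hypothalamus had a summed signal of 524 to 1487 in AAV-Cre mice and 713 to 1228 in AAV-GFP mice, with 0 genes past an unadjusted p of 0.05 and a median log2 FC of −0.36. It was −0.53 under the obese label, −0.09 under the non-obese label and 0.00 without replicates 1 and 3. Slc17a6, the glutamate transporter of these neurons, had −0.92 and 0.14 in the 2 labels, which differed by 1.06 (limma FDR = 0.0328), and Lmo4 had 0.49 in all. For 18 arcuate and regional factors the sums were 288 to 418 and 316 to 376, with a median of −0.19, and 0 genes passed. Isl1, an arcuate factor, had 0.48 and Nkx2-1, which marks the basal hypothalamus, had −0.67. Transcripts of both lists were thus found in both groups, at levels that differed from mouse to mouse. Whether the share of each nucleus in the captured tissue differed, and its part in the other results, was not tested.

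**Figure D5:**
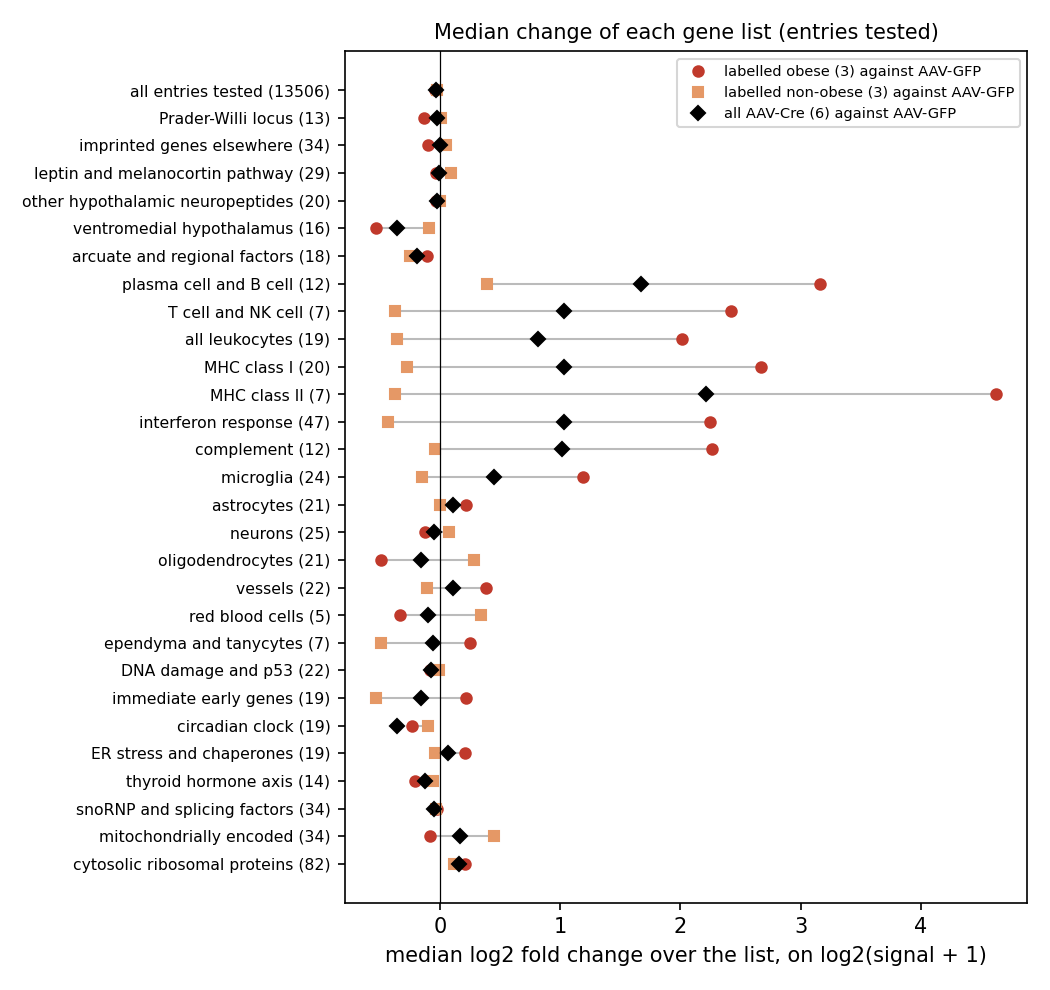
Median log2 FC over each gene list (vertical axis, number of entries tested in brackets) for all 6 AAV-Cre mice (black) and for each weight label (red circles, labelled obese; orange squares, labelled non-obese) against the same 3 AAV-GFP mice. The immune lists from plasma cells to complement have medians of 0.82 or more in all AAV-Cre mice and, apart from plasma cells and B cells, below 0 in mice labelled non-obese; ribosomal proteins have 0.21 and 0.12.

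The immune lists other than that of plasma cells had no common direction in the AAV-Cre mice. The 20 genes of MHC class I presentation all had a positive log2 FC, with a median of 1.03, yet only 2 were higher at an unadjusted p under 0.05 (B2m and Psme1, a proteasome activator, with 1.52 and 0.72). Psmb9 (mean signal 0.255 in AAV-GFP mice) passed the filter through AAV-Cre libraries alone, which fixed its positive sign. The median of the 20 genes was 2.67 under the obese label and −0.27 under the non-obese label, and −0.15 without replicates 1 and 3. The 7 genes of MHC class II had 2.21 in all, 4.63 and −0.37 by label, and −0.09 without these replicates, with 0 past the threshold. Cd74, the invariant chain, had 1076, 9.53, 1186, 4.20, 1.31 and 1.92 against 2.49, 4.79 and 2.72. Its level was thus high in replicates 1 and 3 and near that of the controls in the others. Of 47 interferon response genes, 1 was higher and 0 lower (median 1.03, and −0.29 without these replicates), and the gene was Dhx58, the single member above in all 6. Ifi47 (mean signal 0.319 in AAV-GFP mice) passed the filter through AAV-Cre libraries alone, which fixed its positive sign. Usp18, another interferon-induced gene, had a log2 FC of −0.30, and H2-DMa of the class II list had −0.75, and both turned positive in edgeR and DESeq2. Without replicates 1 and 3 these were −1.77 and −2.16. Of 12 complement genes, 2 were higher and 0 lower (median 1.02, and −0.11 without them). C1qa, a subunit of the initiating complex C1q made by microglia, had 206, 22.5, 207, 14.3, 13.6 and 23.9 against 10.7, 9.96 and 13.4. It was above in all 6, but by a gap of only 0.02 on the log2 scale, and the labels differed by −2.50 (limma FDR = 0.0375). Its log2 FC was 1.78, and 0.63 without replicates 1 and 3 (unadjusted p 0.182 from limma). The other was C4b, with 2.01. Cfp had −0.71.

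For each cell type list other than that of plasma cells and B cells, the summed signal of AAV-Cre and AAV-GFP libraries overlapped. The sums of the plasma cell and B cell list separated, yet ran from 97.2 to 11580 among AAV-Cre libraries. For 19 pan-leukocyte genes, 2 were higher and 0 lower (median 0.82, and −0.27 without replicates 1 and 3), namely the phosphatase gene Ptpn6 (2.37, and 0.998 without them) and Lcp1 (1.10), and Coro1a had −0.63. Of 7 genes of T cells and NK cells 1 was higher, Trbc2 of the T cell receptor, with a log2 FC of 1.999 (median 1.03, and −0.18 without these replicates). Of 11 genes of this list with an entry, 7 passed the filter. Trbc2 and Cxcr6 passed it through AAV-Cre libraries alone, so that their positive sign was fixed by the filter. For 24 microglial genes 2 were higher, P2ry13 and Trem2 (1.39), and 0 lower, with a summed signal of 1938 to 7903 in AAV-Cre mice and 2447 to 2531 in AAV-GFP mice. Their median was 0.45, and −0.16 without replicates 1 and 3, and Spp1 had −1.19, and −2.15 without them. The 25 neuronal genes had a median of −0.05, with 0 higher and 2 lower. These were Uchl1, a ubiquitin hydrolase abundant in neurons, and the neuronal enolase gene Eno2, with −0.38 and −0.40, and Nefh had 0.31. Sums of the neuronal list were 5821 to 8488 against 7167 to 7625. Oligodendrocyte genes (21 tested, 1 lower, Olig1 with −0.81, and Trf with 0.73) had a median of −0.16. Astrocyte genes (21 tested, 0 past the threshold) had 0.11, with Aqp4, the water channel of their endfeet, at 0.64 and Agt at −0.31. Vessel genes (22 tested, 0 past it) had 0.11, with Vcam1 at 1.02 and Tagln at −1.13. Red blood cell genes (5 tested) had −0.10, with Alas2 at 0.54 and Hbb-bt at −0.62, and genes of ependyma and tanycytes (7 tested) had −0.06, with Dnah5 at 0.95 and Kl at −1.19, and 0 passed in either list.

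Genes of the DNA damage response and of p53, the factor that halts the cycle of cells with damaged DNA, were listed too. Of 22, 2 were higher and 0 lower at an unadjusted p under 0.05, with a median log2 FC of −0.07. Ccng1, a direct p53 target (chromosome 11, 40748552 to 40755311), had 58.7, 47.7, 75.7, 28.3, 37.5 and 26.5 against 24.2, 24.5 and 26.2 (log2 FC 0.75, standard error 0.33). It was above in all 6, by a gap of 0.01, and mostly in mice labelled obese (1.22 against 0.28). Atm, the kinase that senses double-strand breaks, had 37.3, 80.6, 66.2, 56.0, 56.0 and 58.3 against 40.9, 23.7 and 26.4 (log2 FC 0.94, standard error 0.28, limma FDR = 0.999). Only replicate 1 fell below the highest control, and the labels were alike (0.96 and 0.92). Perp had −0.88. Of 19 immediate early genes 0 passed (median −0.16), with Jun at 0.67 and Npas4 at −1.66. Atf3 of this list (mean signal 0.1915 in AAV-GFP mice) met the filter through AAV-Cre libraries alone, which fixed its positive sign. Of 19 genes of the endoplasmic reticulum stress response 1 was higher and 0 lower (median 0.07). This was the chaperone gene Hsp90b1 with 0.35, while Pdia6 had −0.22.

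The 272 entries were chosen for lying on the same side of the controls in both weight labels, so a shared direction is fixed by the choice. The mice labelled obese had the larger absolute log2 FC in 177 of them, against 7964 of all 13506 entries. The labels differed at an FDR under 0.1 in 4 of the 126 entries above and in 0 of the 146 below, against 128 of all 13506, with limma, in which a p that misses the threshold does not show that the labels act alike. The 4 were Igkc, Jchain, Ighg2c and C1qa, each higher in the mice labelled obese. Median log2 FCs were 0.74 and 0.65 for the entries above, and −0.83 and −0.64 for those below, in mice labelled obese and non-obese, which were compared with the same 3 AAV-GFP mice.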

How the data were processed

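Libraries were made with a stranded low-input kit and sequenced as single-end reads. Per the labels and the paper's methods, the authors mapped reads to GRCm38 with TopHat2 2.0.11 after CASAVA 1.7 and used HTSeq, edgeR and limma, whose versions and settings, the use of the strand in counting included, are not given in the sources used here. The deposited values are signal, which the authors made as reads per gene divided by a scaled library size. They are named CPM, but their sums differ between libraries. Dividing by the value of 1 read gave whole numbers (within 0.1) for 100.0% of entries in each library, and these recovered reads entered the count tests. Symbols were matched for 13446 of 13586 Ensembl identifiers (GENCODE M21, GRCm38), and the lowest total of an entry was 50 reads. Where genes overlap, or an antisense gene shares the place, reads cannot be assigned with certainty.

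Log2(signal + 1) was tested with limma 3.58.1 in R 4.3.3 with a variance trend, 6 AAV-Cre against 3 AAV-GFP libraries, with Benjamini-Hochberg adjustment over 13506 entries. The 2 weight labels were fitted as 3 groups with AAV-GFP for the values by label and their difference. Named genes are the called entries, the 15 above and the 15 below with the widest gap, the members of each of 27 gene lists that separated the groups or had the smallest p in each direction, the genes of the leptin pathway that the study examined, and the tested genes of the Prader-Willi region; further genes past p 0.05 in a list were named after their values were seen. Some genes that meet these rules are not reported here. A test planned for CPM was applied unchanged to signal. Members, lists and rules were chosen with earlier results of these data known. Each library is 1 mouse. Alternatives were pseudocounts of 0.1 and 5, other filters, median centring, no variance trend, the average of both labels, the title number as a block, edgeR 4.0.16, DESeq2 1.42.0 and leaving out each library. The procedure was tested on simulated data. Start sites are from RefSeq (GRCm38.p6).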

Additional observations from a re-analysis of the deposited data

Results flagged for a closer look

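Among the 6 AAV-Cre mice, a single library stood apart from the others in 5 of 105 values examined, where chance gives about 5.25. These were Plxna1 in replicate 3 (signal 63.9), Coro1a in replicate 6 (6.40), Nr1d1 in replicate 3 (18.4), Gabrg3 in replicate 2 (119) and Herc2 in replicate 5 (502.9). For Plxna1 and Nr1d1 the library apart was the lowest AAV-Cre value, and the other 5 were below the controls too.

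The weight labels differed at an FDR under 0.1 (limma, 3 groups in a fit) in 9 named genes, given as non-obese minus obese on the log2 scale. Igkc (−4.92), Jchain (−5.26), Ighg2c (−6.54), Cd74 (−6.18) and C1qa (−2.50) were lower under the non-obese label, as were the astrocyte water channel gene Aqp4 (−1.11) and Trh (−2.57). Rian (0.61) and Slc17a6 (1.06) were higher there. Igkc, Jchain, Ighg2c and C1qa were above the controls in both labels, and the others were not.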

How the results depend on the processing

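The number of called entries was 3 with all libraries and 3 with the title number as a replicate block; the numbers do not pair mice, since deviations of same-numbered libraries correlated between −0.02 and 0.09. It was 6 for the average of both labels, 7 in the edgeR likelihood ratio test, 9 in DESeq2 2 to 4 when a library was left out, and 2 (Cre and Gfp, with Igkc lost) with a pseudocount of 5, with a filter at a signal of 5, without a variance trend and in the edgeR quasi-likelihood test. The additions were antibody genes and Lpxn. The entries that separated the groups numbered 272, and 401 to 762 when a library was left out, since fewer libraries have to agree, and 732 without AAV-Cre replicates 1 and 3, an alternative chosen after the values were seen. After median centring 229 of the 272 still separated, with 103 above and 169 below. The median level within a library was on average 0.0354 higher in AAV-Cre than in AAV-GFP libraries on the log2 scale. The median of the log2 FCs of all entries was −0.03.

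Of 2074 values of 104 named genes, 66 in 16 genes changed sign, all in genes far from a call, and the cause was not tested. In edgeR (both tests) and DESeq2 the log2 FC was 0.72, 0.72 and 0.74 for H2-DMa, 1.08, 1.08 and 1.10 for Usp18, −0.03, −0.03 and −0.02 for Npy, 0.13, 0.13 and 0.14 for Lepr, 0.02, 0.02 and 0.03 for Pcsk1, and 0.03, 0.03 and 0.04 for Atp10a. A pseudocount of 5 gave 0.11 for Usp18 and 0.1 gave −0.12 for Snord64. Median centring gave −0.03 for Npy, −0.03 for Snord64 and −0.02 for Tubgcp5.

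With each library left out in turn the log2 FC ran from −0.12 to 0.80 for Lmo4, −0.90 to 0.25 for Usp18, −1.25 to 0.48 for Pomc, −1.10 to 0.01 for Agrp, −0.54 to 0.42 for Npy, −0.65 to 0.09 for Lepr, −0.12 to 0.22 for Pcsk1, −0.24 to 0.36 for Snord64, −0.18 to 0.12 for Atp10a, −0.72 to 0.39 for Magel2, −0.04 to 0.34 for Gabrg3, −0.11 to 0.02 for Herc2, −0.20 to 0.89 for Nipa2, −0.13 to 0.28 for Tubgcp5 and −0.09 to 0.27 for Cyfip1.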

Other observations

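Entries outside the gene lists that separated the groups are given here with log2 FC, and were chosen after their values were seen for their known roles. Below the controls in all 6 AAV-Cre mice were Syn2 (−0.33) of synaptic vesicles, the calcium sensor gene Ncs1 (−0.48), the channel genes Cacna1i (−0.38) and Kcnn3 (−0.63), the serotonin receptor gene Htr4 (−1.14) and Tgfb2 (−0.72). Above them were Mtrex (0.40), the helicase that feeds the RNA exosome, Ddx39b (0.35) of mRNA export, the splicing factor gene Sf3b2 (0.28), the small nucleolar RNA Snora68 (0.78) and Dnmt1 (0.40), the maintenance DNA methyltransferase. None passed the FDR.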
